A study of Mus musculus with 6 samples.

Results

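The extracellular matrix of the liver was followed through 37 genes that encode collagens, enzymes that crosslink them, and the glycoproteins and proteoglycans that bind them. The 37 were a named list, chosen with earlier results of these data known. They were looked up by symbol among the 17119 genes of a table of raw read counts. All 37 were in the table, and all 37 were among the 12706 genes that passed the filter on low counts. RNA came from whole liver of mice fed a diet rich in fat and cholesterol (HFHCD) for 12 weeks, a model of steatohepatitis, the inflamed fatty liver that can scar. In 3 libraries, called Hete, the genotype was Clec4f-iCre;Cebpbfl/+, so that 1 allele of Cebpb was floxed. In 3 libraries, called WT, it was Clec4f-iCre;Cebpb+/+, from littermates of the Hete mice. Cebpb encodes the transcription factor C/EBPβ. Both groups had iCre driven by Clec4f, a gene of Kupffer cells (the macrophages that live in the liver), so the deletion was aimed at a cell type that is not the main maker of collagen. The sample labels write the driver as Clec5f and Clec6f for replicates 2 and 3 of both groups, whereas the series design names Clec4f throughout, and the design was followed. The labels used here give no age, sex or batch, and do not tie libraries to separate mice, so a p-value here reflects the spread among these libraries, which may be technical. The question was whether deleting 1 Cebpb allele in Kupffer cells went with a change in matrix genes of the liver on this diet, and whether fibrillar and basement membrane genes did the same.

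The matrix of the liver is laid down mostly by stellate cells in the space between hepatocytes and the sinusoids, and by fibroblasts around the portal tracts. When the liver is injured, stellate cells turn into myofibroblasts that secrete fibrillar collagens, the rope-like molecules of scar tissue, which lysyl oxidases then crosslink outside the cell. Basement membrane proteins form thin sheets of type IV collagen, laminin, nidogen and perlecan under bile ducts and vessels, and sinusoids gain such a sheet as fibrosis advances.

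Promoter sequences are shown for 4 members to make 3 points about the results below. Sned1 was the member that passed the test, and Col1a2 is a fibrillar collagen gene. Col4a1 and Col4a2 are neighbours on opposite strands whose promoter windows overlap. Of the 37 members, 24 had promoter sequence in RefSeq on build GRCm38.p6, as 28 windows that run from 250 bases before an annotated transcript start to 50 bases after it. The Sned1 window is chr1:93235647-93235946 on the plus strand and the Col1a2 window is chr6:4505368-4505667 on the plus strand. Capitals in these windows mark matches to GGGCGG, the GC box bound by Sp1, or in Col1a2 also to CCAAT, the CCAAT box, on either strand.
Sned1: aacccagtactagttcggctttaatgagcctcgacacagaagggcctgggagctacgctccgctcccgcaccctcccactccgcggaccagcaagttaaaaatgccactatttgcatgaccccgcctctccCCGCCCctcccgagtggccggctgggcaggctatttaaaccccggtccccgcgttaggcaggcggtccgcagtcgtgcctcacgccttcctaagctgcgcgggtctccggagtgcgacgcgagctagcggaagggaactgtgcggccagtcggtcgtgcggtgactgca
Col1a2: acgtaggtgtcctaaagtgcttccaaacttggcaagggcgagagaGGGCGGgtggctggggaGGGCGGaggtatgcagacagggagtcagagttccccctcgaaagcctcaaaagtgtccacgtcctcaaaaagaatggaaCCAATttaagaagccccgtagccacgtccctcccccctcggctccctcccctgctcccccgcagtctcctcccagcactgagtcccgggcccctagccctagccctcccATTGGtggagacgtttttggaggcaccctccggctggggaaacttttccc
The Col4a1 window is chr8:11312777-11313076 on the minus strand and the Col4a2 window is chr8:11312555-11312854 on the plus strand. Their annotated starts are 21 bases apart on opposite strands, and each gene is read across the annotated start of the other. Capitals mark the 78 bases that both windows hold, each read in its own gene's direction.
Col4a1: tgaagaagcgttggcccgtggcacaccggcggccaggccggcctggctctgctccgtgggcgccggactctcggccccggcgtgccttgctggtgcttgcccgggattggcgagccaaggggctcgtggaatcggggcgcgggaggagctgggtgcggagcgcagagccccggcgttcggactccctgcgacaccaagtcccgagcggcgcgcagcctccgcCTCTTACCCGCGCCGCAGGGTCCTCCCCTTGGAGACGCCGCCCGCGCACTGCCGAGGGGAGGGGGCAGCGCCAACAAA
Col4a2: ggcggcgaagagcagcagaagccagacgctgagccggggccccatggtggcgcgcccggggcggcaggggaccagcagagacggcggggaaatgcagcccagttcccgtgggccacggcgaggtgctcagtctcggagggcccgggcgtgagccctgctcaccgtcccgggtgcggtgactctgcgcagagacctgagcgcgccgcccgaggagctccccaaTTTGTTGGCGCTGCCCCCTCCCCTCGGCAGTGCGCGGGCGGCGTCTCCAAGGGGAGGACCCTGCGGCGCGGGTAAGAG
Searched on both strands, with overlapping matches allowed, GGGCGG was in 17 of the 28 member windows (60.7%), against 35.7% of all 32851 windows of the same length. CCAAT was in 10 (35.7%), against 37.4%. TTGCNNAA, a core of the sites that C/EBP factors bind, was in 5 (17.9%), those of Col6a2, Dpt, Efemp1, Nid1 and Postn, against 10.8% of all windows. TATAAA, the TATA box, was also in 5 (17.9%), against 13.6%. These letters describe the windows and are not evidence of binding.

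The libraries held between 16895322 and 17750755 counts. Levels are given in CPM, a gene’s counts relative to the total of its library after scaling by edgeR’s TMM factors, and fold changes are Hete over WT on the log2 scale with their SE from edgeR. Hepatocyte genes were abundant in all libraries, with Alb between 66248 and 95207 CPM. Cebpb RNA measured 204, 498 and 269 CPM in Hete libraries and 506, 308 and 340.4 CPM in WT libraries, so the groups overlapped. Whole liver holds Cebpb RNA of many cell types, and this level is a weak check of the labels. Of the 12706 genes, 71 (0.559%) were lower and 3 (0.0236%) were higher in Hete libraries at an edgeR adjusted p of 0.05.

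Per kilobase of exon, the levels of the members spanned more than 2 orders of magnitude. The length used was the union of all annotated exons of a gene, which can exceed that of its main transcript. Comparisons between genes on this scale are therefore rough. Fn1, which encodes fibronectin and is made in bulk by hepatocytes for the plasma, stood at 131 ± 41.1 CPM per kilobase in Hete libraries and 159.8 ± 41.2 in WT libraries (SD, n = 3 each). Col18a1, the collagen whose end fragment is endostatin and which hepatocytes also express, stood at 139 ± 18.9 and 137 ± 4.12. Ecm1, a secreted glycoprotein, followed at 63.0 ± 5.74 and 65.1 ± 3.11. Behind these came Dcn, Bgn and Sparc, and then Col14a1. The fibrillar collagen genes Col1a1 and Col3a1 held ranks 8 and 10 in the order, at 5.79 ± 2.86 and 4.69 ± 2.49 CPM per kilobase in Hete libraries and 11.9 ± 0.994 and 10.1 ± 2.33 in WT libraries. Lox and Col12a1 were lowest. Of the 36 pairs of neighbours in this order, 33 overlapped in their values over the 6 libraries, the exceptions being the steps below Col18a1, Ecm1 and Sparc. Fn1 and Col18a1 together made up 60.5% to 75.5% of the members' summed CPM in Hete libraries and 60.3% to 70.0% in WT libraries, so a sum over all members mostly follows these 2 genes. The other 35 members summed to 905, 1032 and 1328 CPM in Hete libraries and to 1437, 1595 and 1742 CPM in WT libraries, with no overlap.

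**Figure D1:**
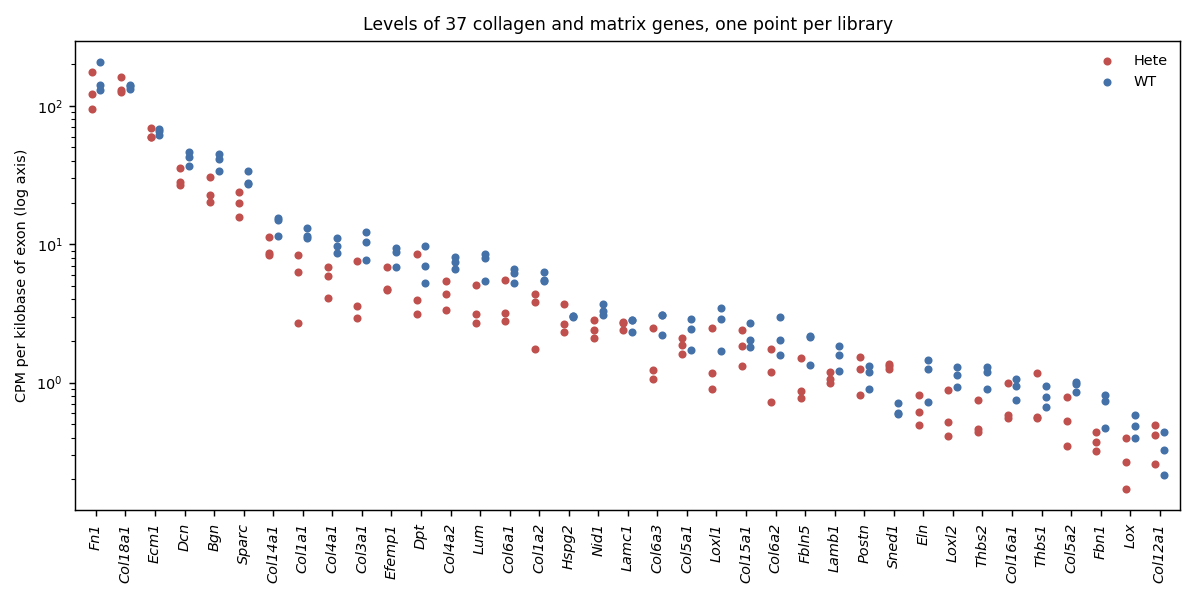
Level of each of the 37 genes in CPM per kilobase of exon on a log axis, with 1 point per library, Hete (red) left of WT (blue), in order of the mean over all libraries. Fn1 and Col18a1 stand near 140 CPM per kilobase and most genes between 0.3 and 15.

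Most matrix genes measured lower in Hete than in WT libraries, and 1, Sned1, measured higher and passed the test. The log2 fold change was negative for 33 of the 37 members, against 49.0% of all genes tested, and its median was −0.62, against 0.0048 over all genes tested. At an edgeR adjusted p of 0.05, 0 members were lower and 1 was higher. At an unadjusted edgeR p under 0.05, 22 of 37 members were lower, against 9.00% of all genes tested, and 1 was higher, against 4.20%. For 17 members every Hete library lay below every WT library, against 11.3% of all genes tested, and for 1 every Hete library lay above, against 7.05%. DESeq2 called 7 members lower, namely Col1a1, Col3a1, Col4a1, Col4a2, Lum, Bgn and Thbs2, against 3.56% of all genes tested, and 1 higher, Sned1, against 0.645%. limma-voom called 0 lower, against 0.354%, and 1 higher, Sned1, against 0.00787%. The members were chosen with earlier results of these data known, so counts set beside the shares of all genes are a description, not a test. The members also share cells of origin, so these counts are not counts of independent events. In whole tissue, fewer cells of a type and less RNA per cell cannot be told apart.

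The count of members lower at an unadjusted p under 0.05 depended on single libraries. It was 12 without Hete replicate 1, against 6.17% of the genes tested in that fit, and 13 without Hete replicate 2, against 8.40%. It was 14 without WT replicate 2, against 7.27%, and 12 without WT replicate 3, against 8.16%. Without Hete replicate 1 and WT replicate 1 together, a choice made after the data were seen, it was 19, against 6.31% of the genes tested in that fit. Without Hete replicate 3, edgeR called 4 members lower at an adjusted p of 0.05, Col3a1, Col4a2, Col6a1 and Col6a3, against 0.829% of genes.

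**Figure D2:**
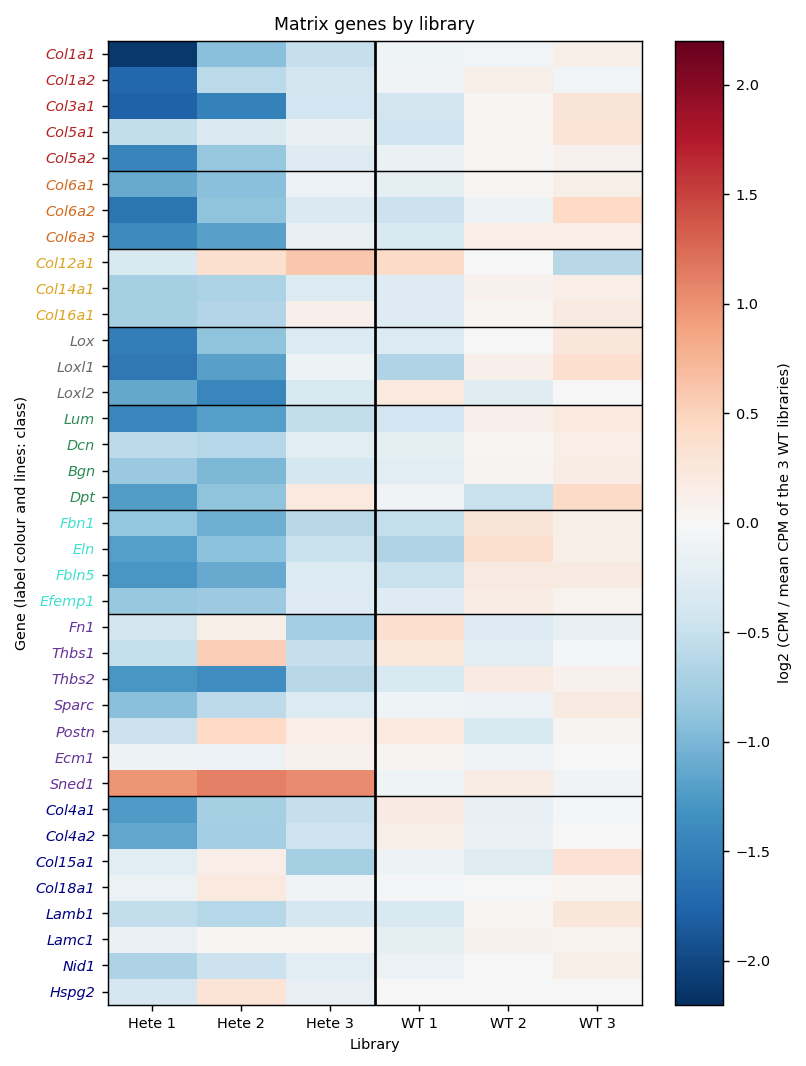
Heat map of each member (rows, grouped by class) in each library (columns, Hete left of WT), coloured by log2 of its CPM over the mean CPM of the 3 WT libraries. Hete replicate 1 is the lowest library for 25 of the 37 rows, and Sned1 is the row that is red in all 3 Hete libraries.

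**Figure D3:**
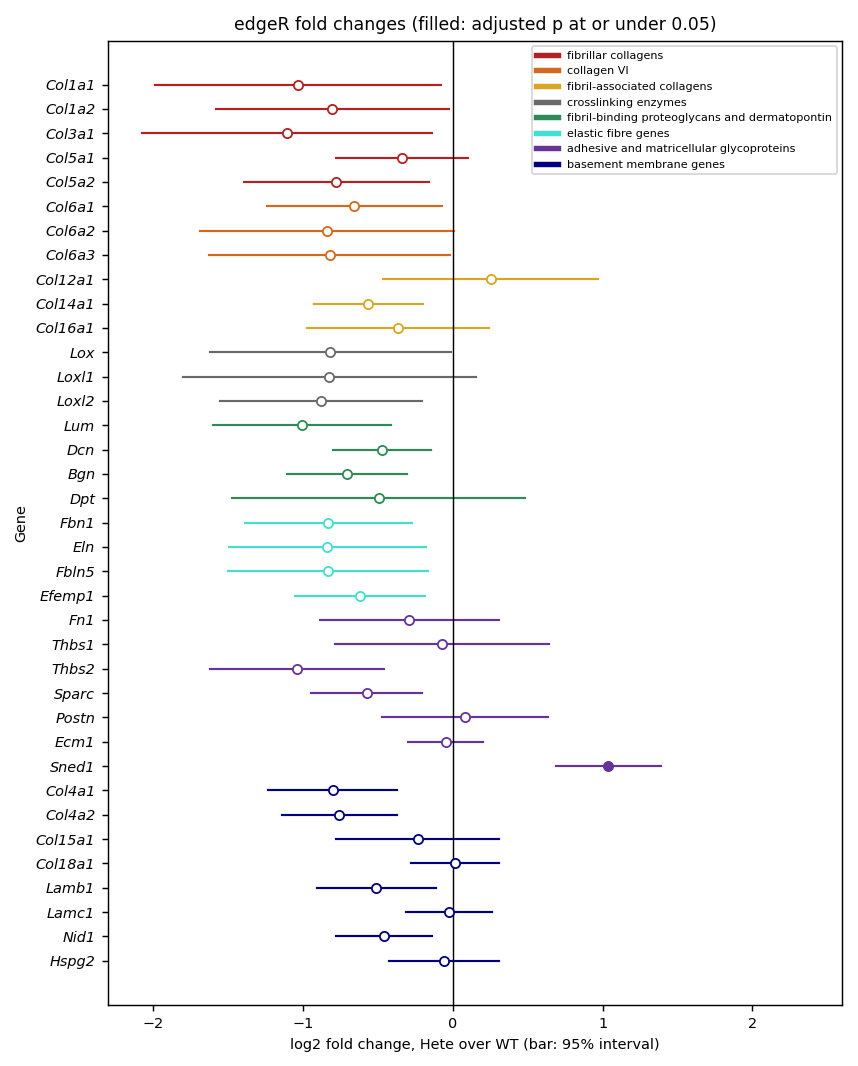
log2 fold change of each member, Hete over WT, from edgeR, with its 95% interval, coloured by class, and a filled point where the adjusted p is at or under 0.05. Sned1 at 1.04 is the filled point, and 33 of the 37 points lie left of 0.

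Sned1 encodes a secreted matrix glycoprotein with nidogen-like, fibronectin type III and EGF-like domains. It measured 11.8, 13.0 and 12.4 CPM in Hete libraries and 5.67, 6.75 and 5.69 CPM in WT libraries. The 3 values of each group lay close together and the groups did not overlap. Sned1 rose 2.05-fold, with a log2 fold change of 1.04 ± 0.15 (95% interval 0.69 to 1.39, edgeR adjusted p = 0.0357). Its SE was small beside those of most collagen genes, because its spread over libraries was small, with SDs of 0.570 and 0.615 CPM. On the log2 scale it lay between 0.997 and 1.13 in all alternatives tried, but the adjusted p went past the threshold whenever a library was left out, from 0.0505 without Hete replicate 3 to 0.188 without Hete replicate 1.

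The 5 fibrillar collagen genes among the members had negative log2 fold changes, from −1.10 to −0.34. In 4 of the 5 every Hete library lay below every WT library, against 11.3% of all genes tested. Col5a3 and Col27a1, fibrillar collagen genes outside the 37, had positive log2 fold changes. Col1a1, which encodes the main chain of type I collagen, measured 17.8, 41.2 and 55.0 CPM in Hete libraries and 73.2, 75.1 and 85.3 CPM in WT libraries. Col1a2, the partner chain of the same molecule, measured 21.6, 47.8 and 54.1 CPM in Hete libraries and 67.6, 78.9 and 68.8 CPM in WT libraries. Both genes were lowest in Hete replicate 1, and the Hete values were far more scattered than the WT values. The log2 fold changes were −1.03 ± 0.39 for Col1a1 and −0.80 ± 0.32 for Col1a2, and neither passed (edgeR adjusted p = 0.338 and 0.368). Col3a1, the type III collagen of early and reticular fibrils, measured 29.0, 35.1 and 74.0 CPM in Hete libraries and 74.9, 102 and 120.4 CPM in WT libraries. Its highest Hete value lay just under its lowest WT value, and the log2 fold change was −1.10 ± 0.39 (edgeR adjusted p = 0.309). Type V collagen sits inside type I fibrils and sets their width. Col5a2, one of its chains, measured 3.32, 5.09 and 7.51 CPM in Hete libraries and 8.23, 9.30 and 9.74 CPM in WT libraries, with no overlap (log2 fold change −0.78 ± 0.27). Col5a1, another chain, measured 13.7, 16.0 and 17.9 CPM in Hete libraries and 14.7, 20.7 and 24.6 CPM in WT libraries, where the groups overlapped (−0.34 ± 0.19). Col5a3, the remaining chain, measured 153, 109.6 and 154 CPM in Hete libraries and 64.2, 107 and 106 CPM in WT libraries, without overlap and with the opposite sign (0.59 ± 0.22, edgeR adjusted p = 0.298). Per kilobase it stood above both other chains and above Col1a1, at 20.4 ± 3.73 CPM in Hete libraries and 13.6 ± 3.59 CPM in WT libraries (SD, n = 3 each). Over the 5 members, edgeR called 0, DESeq2 called Col1a1 and Col3a1 lower, against 3.56% of all genes tested, and limma-voom called 0. At an unadjusted edgeR p under 0.05, 4 of 5 were lower, against 9.00% of all genes tested.

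Type VI collagen forms beaded filaments around cells and fibrils, and its 3 genes among the members had similar log2 fold changes. Col6a3 measured 12.7, 14.7 and 29.5 CPM in Hete libraries and 26.5, 36.9 and 37.1 CPM in WT libraries. Col6a1 measured 12.2, 13.9 and 24.2 CPM in Hete libraries and 23.1, 27.4 and 28.9 CPM in WT libraries. In both genes Hete replicate 3 lay among the WT values while the other Hete libraries lay below all of them. The log2 fold changes were −0.82 ± 0.33 and −0.66 ± 0.25, and that of Col6a2 was −0.84 ± 0.36, with groups that also overlapped. None of the 3 passed in edgeR, DESeq2 or limma-voom. At an unadjusted edgeR p under 0.05, 2 of the 3 were lower, against 9.00% of all genes tested.

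Fibril-associated collagens coat the surface of fibrils. Col14a1, the one with the highest level, measured 58.6, 60.3 and 79.6 CPM in Hete libraries and 80.1, 105 and 108 CPM in WT libraries. Hete replicate 3 came within 1 CPM of WT replicate 1, without overlap, and the log2 fold change was −0.56 ± 0.16 (edgeR adjusted p = 0.151). Col16a1 measured 3.73, 3.94 and 6.71 CPM in Hete libraries and 5.06, 6.37 and 7.11 CPM in WT libraries, with overlap. Col12a1, a gene of stressed and healing connective tissue, had a log2 fold change of 0.25 ± 0.32, with its highest value in Hete replicate 3. This class was therefore mixed in sign.

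Lysyl oxidases oxidise lysines of collagen and elastin so that the fibres crosslink. Loxl2, which also acts on type IV collagen, measured 2.80, 2.24 and 4.82 CPM in Hete libraries and 7.01, 5.06 and 6.13 CPM in WT libraries, with no overlap (log2 fold change −0.88 ± 0.30, edgeR adjusted p = 0.224). Lox measured 0.815, 1.27 and 1.89 CPM in Hete libraries and 1.89, 2.34 and 2.79 CPM in WT libraries, where Hete replicate 3 and WT replicate 1 were level. Its log2 fold change was −0.82 ± 0.36, and that of Loxl1, the enzyme of elastic fibres, was −0.82 ± 0.42. The 3 enzymes had closely similar fold changes, all with intervals that reached to −0.21 or nearer to 0, and 0 were called by any of the 3 tools.

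Small proteoglycans with leucine-rich repeats bind collagen fibrils and control their assembly. Bgn, biglycan, measured 138, 123 and 188 CPM in Hete libraries and 205, 253 and 273 CPM in WT libraries. Lum, lumican, measured 6.64, 7.69 and 12.3 CPM in Hete libraries and 13.4, 19.4 and 20.9 CPM in WT libraries. Neither gene overlapped between groups, and in both genes replicate 3 was the highest of the Hete libraries. The log2 fold changes were −0.71 ± 0.18 for Bgn and −1.01 ± 0.26 for Lum (edgeR adjusted p = 0.112 and 0.125), and DESeq2 called both. Dcn, decorin, the most abundant of the group per kilobase, averaged 176 ± 26.9 CPM in Hete libraries and 244 ± 28.3 CPM in WT libraries (SD, n = 3 each), also without overlap. Dpt, dermatopontin, which binds decorin, overlapped between groups, with a log2 fold change of −0.49 ± 0.41.

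Elastic fibres consist of elastin on a scaffold of fibrillin microfibrils. Fbn1, fibrillin-1, measured 4.54, 3.88 and 5.33 CPM in Hete libraries and 5.67, 9.90 and 8.87 CPM in WT libraries. Efemp1, fibulin-3, measured 9.49, 9.69 and 13.9 CPM in Hete libraries and 13.9, 19.0 and 17.9 CPM in WT libraries. For both genes the highest Hete value lay just under WT replicate 1, the lowest WT library. Their log2 fold changes were −0.83 ± 0.25 and −0.62 ± 0.19 (edgeR adjusted p = 0.164 and 0.180). Eln, elastin, at −0.84 ± 0.29, and Fbln5, fibulin-5, which links elastin to the scaffold, at −0.83 ± 0.29, overlapped between groups. All 4 genes were lower at an unadjusted edgeR p under 0.05, against 9.00% of all genes tested. After adjustment, 0 were called in edgeR, DESeq2 or limma-voom.

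The adhesive and matricellular glycoproteins were divided. Thbs2, thrombospondin-2, a matricellular protein of fibroblasts, measured 3.26, 3.09 and 5.22 CPM in Hete libraries and 6.28, 9.09 and 8.43 CPM in WT libraries, with no overlap (log2 fold change −1.04 ± 0.26, edgeR adjusted p = 0.107). Sparc, a collagen-binding protein needed for fibril assembly, measured 59.4, 74.8 and 90.8 CPM in Hete libraries and 105, 103 and 128 CPM in WT libraries, again with no overlap (−0.57 ± 0.16, edgeR adjusted p = 0.151). Fn1 measured 1413, 2054 and 1113 CPM in Hete libraries and 2419, 1527 and 1657 CPM in WT libraries. It was highest in WT replicate 1 and next highest in Hete replicate 2, and the groups overlapped (−0.29 ± 0.26). The summed CPM of 13 acute phase genes of hepatocytes was 34393 in Hete replicate 2, against 21933 and 22811 in the other Hete libraries, and 66942 in WT replicate 1, against 25401 and 34496 in the other WT libraries. The part of this response in the Fn1 values was not tested. Thbs1 (−0.07 ± 0.32), Postn, periostin (0.08 ± 0.25), and Ecm1 (−0.05 ± 0.11) lay near 0, with 95% intervals of −0.79 to 0.64, −0.47 to 0.64 and −0.30 to 0.20.

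Basement membrane genes were split between the collagen IV pair, nidogen and a laminin chain on one side and the remaining genes on the other. Col4a1 measured 30.7, 43.9 and 51.3 CPM in Hete libraries and 83.4, 64.3 and 71.9 CPM in WT libraries. Col4a2, its neighbour on the opposite strand with the overlapping promoter window shown above, measured 22.2, 29.0 and 35.6 CPM in Hete libraries and 53.2, 44.1 and 49.4 CPM in WT libraries. The 6 libraries stood in the same order for both genes, with WT replicate 1 at the top and Hete replicate 1 at the bottom, and the groups did not overlap. The log2 fold changes were −0.80 ± 0.19 and −0.76 ± 0.17, and the edgeR adjusted p-values of 0.0971 and 0.0810 were the lowest of the members after Sned1. DESeq2 called both (adjusted p = 0.00825 and 0.00876). Nid1, nidogen-1, which ties laminin to collagen IV, measured 14.5, 16.8 and 19.6 CPM in Hete libraries and 21.3, 23.0 and 25.5 CPM in WT libraries, with no overlap (−0.46 ± 0.14). Lamb1, the laminin β1 chain, measured 10.6, 9.93 and 11.9 CPM in Hete libraries and 12.1, 15.8 and 18.3 CPM in WT libraries, with no overlap by a small margin (−0.51 ± 0.17).

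The other basement membrane genes did not share this pattern of separate groups. Lamc1, the laminin γ1 chain that assembles with Lamb1's product, measured 19.9, 22.7 and 22.5 CPM in Hete libraries and 19.2, 23.6 and 23.4 CPM in WT libraries (log2 fold change −0.03 ± 0.13, 95% interval −0.31 to 0.26). Hspg2, perlecan, measured 33.3, 52.6 and 37.7 CPM in Hete libraries and 42.6, 43.0 and 43.0 CPM in WT libraries (−0.06 ± 0.16, 95% interval −0.43 to 0.31). Col18a1 measured 879, 1125 and 917 CPM in Hete libraries and 933, 973 and 989.6 CPM in WT libraries (0.01 ± 0.13, 95% interval −0.28 to 0.31). Col15a1, its relative, measured 11.6, 15.3 and 8.37 CPM in Hete libraries and 12.8, 11.5 and 17.2 CPM in WT libraries (−0.23 ± 0.24). For Hspg2 and Col18a1 the highest of all 6 libraries was Hete replicate 2, as it was for Thbs1 and Postn. That library also stood apart in smooth muscle genes, with Myh11 at 13.0 CPM, against 3.09 and 3.84 CPM in the other Hete libraries and 2.34 to 2.63 CPM in WT libraries, and the part of those cells in these values was not tested.

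Set side by side, the mean log2 fold change was −0.81 over the 5 fibrillar collagens and −0.35 over the 8 basement membrane genes, a difference of −0.46. In single libraries the mean log2 CPM of the fibrillar genes was 3.81, 4.50 and 4.97 in Hete libraries and 5.09, 5.36 and 5.47 in WT libraries. That of the basement membrane genes was 4.93, 5.26 and 5.17 in Hete libraries and 5.43, 5.43 and 5.59 in WT libraries. Each class mean was lower in every Hete library than in every WT library. The fibrillar mean minus the basement membrane mean was −1.12, −0.76 and −0.20 in Hete libraries and −0.33, −0.07 and −0.12 in WT libraries. The groups overlapped in this difference, because Hete replicate 3 lay among the WT libraries, so the larger difference of the fibrillar genes was carried by 2 of the 3 Hete libraries. The difference between the classes was −0.30 without Hete replicate 1 and −0.74 without Hete replicate 3. Type I collagen was also set against the collagen IV pair alone. Col1a1 plus Col1a2 over Col4a1 plus Col4a2, in CPM, was 0.744, 1.22 and 1.26 in Hete libraries and 1.03, 1.42 and 1.27 in WT libraries, and the groups overlapped.

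**Figure D4:**
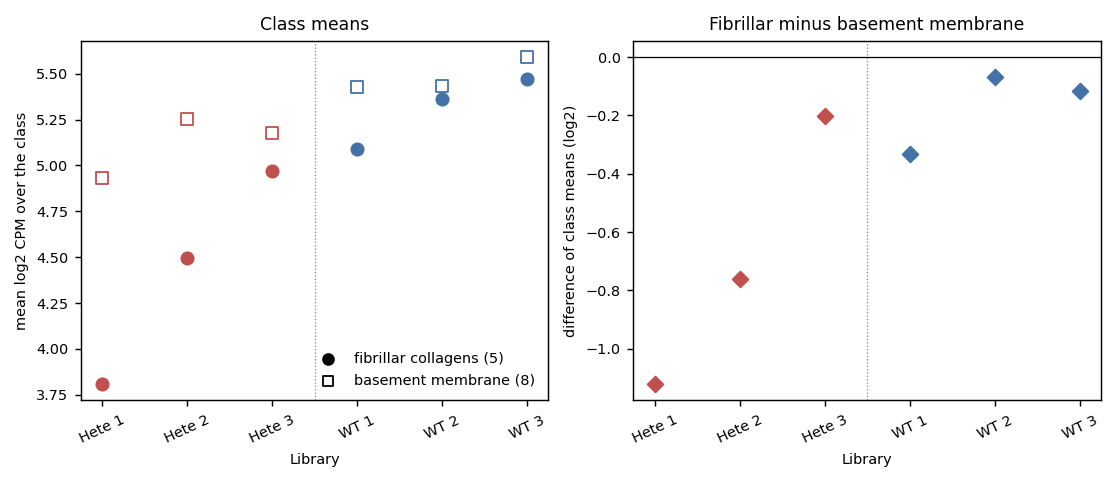
Left, mean log2 CPM of the 5 fibrillar collagen genes (filled circles) and the 8 basement membrane genes (open squares) in each library, Hete (red) left of WT (blue). Right, the fibrillar mean minus the basement membrane mean, which runs from −1.12 to −0.20 in Hete libraries and from −0.33 to −0.07 in WT libraries.

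In most members the Hete libraries differed more among themselves than the WT libraries did. The coefficient of variation was larger in Hete libraries for 30 of the 37 members, with a median over members of 30.0% in Hete and 16.8% in WT libraries. Among the Hete libraries, replicate 1 was lowest for 28 members and replicate 3 highest for 29. Among the WT libraries, replicate 1 was lowest for 26 members and replicate 3 highest for 21. Over all 6 libraries, Hete replicate 1 was lowest for 25 members, although it was lowest for 17.2% of all genes tested, and WT replicate 3 was highest for 20 members, although it was highest for 11.0% of all genes tested. For 22 of the 37 members replicate 1 was lowest and replicate 3 highest among the Hete libraries, for 18 this held among the WT libraries, and for 14 it held in both groups. Coefficients of variation and orders within a group were not counted over all genes. Whether they are particular to matrix genes was therefore not tested.

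Other genes of collagen production were taken from lists outside the 37. The counts of these and later lists are to be read beside the shares of all genes tested. At an unadjusted edgeR p under 0.05, 9.00% were lower and 4.20% higher. DESeq2 called 3.56% lower and 0.645% higher, and edgeR called 0.559% lower at an adjusted p of 0.05. Of 28 genes for collagen synthesis and processing, 25 were tested, edgeR and limma-voom called 0, DESeq2 called 2 lower, and 5 were lower and 2 higher at an unadjusted edgeR p under 0.05. Serpinh1, the collagen chaperone HSP47, measured 16.8, 18.0 and 29.8 CPM in Hete libraries and 40.0, 36.2 and 39.0 CPM in WT libraries (log2 fold change −0.83 ± 0.21, edgeR adjusted p = 0.115). Adamts2, the protease that removes the amino-terminal propeptide of procollagen, and Pcolce, an enhancer of removal at the other end, had log2 fold changes of −0.86 ± 0.24 and −0.61 ± 0.18, and neither passed. All 3, picked for the smallest p, had Hete libraries below all WT libraries. Of the 25 tested genes of the list, 9 lay below in this way, against 11.3% of all genes tested. Another 2 had every Hete library above every WT library, against 7.05%.

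Of 55 further matrix genes, 45 were tested, and edgeR and limma-voom called 0, while DESeq2 called 5 lower and 1 higher. At an unadjusted edgeR p under 0.05, 13 were lower and 3 higher, against 9.00% and 4.20% of all genes tested. Tgfbi, a collagen-binding adhesion protein, measured 49.4, 57.9 and 60.4 CPM in Hete libraries and 79.3, 87.6 and 84.1 CPM in WT libraries (log2 fold change −0.58 ± 0.11). Col27a1, a minor fibrillar collagen gene, had the opposite sign, at 74.1, 71.8 and 63.7 CPM in Hete libraries and 50.3, 38.7 and 44.6 CPM in WT libraries (0.65 ± 0.13). Both stood just past the threshold, with an edgeR adjusted p of 0.0561 each. Lama2, a laminin chain gene, had a log2 fold change of −1.16 ± 0.27. Other basement membrane genes of this list went both ways. Nid2 (0.36 ± 0.17), Lamb3 (0.40 ± 0.22) and Agrn (0.19 ± 0.10) had every Hete library above every WT library. Lama3 was at 0.52 ± 0.22, Lamc3 at −0.65 ± 0.28 and Col4a4 at −1.01 ± 0.44. None of these passed. Over the whole list, 32 log2 fold changes were negative and 13 positive. Of 22 receptor genes for collagen and matrix, 20 were tested, edgeR and limma-voom called 0, DESeq2 called 2 lower, and 4 were lower and 2 higher at an unadjusted p under 0.05. The 3 with the smallest p were Cd44, a hyaluronan receptor that leukocytes express strongly (−1.29 ± 0.29), Mrc2, which takes up collagen fragments (−1.23 ± 0.32), and Itga2, a collagen-binding integrin chain (−1.58 ± 0.53).

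Markers of the cells that could supply or accompany this RNA are given beside these results. The shares of all genes given above for the other lists apply to the marker counts as well. The 16 stellate cell markers summed to between 393 and 429.8 CPM in Hete libraries and between 423 and 459.8 CPM in WT libraries, with 5 lower and 0 higher at an unadjusted edgeR p under 0.05, 0 called by edgeR or limma-voom and 1 called lower by DESeq2. Lrat, the retinol-storing enzyme that defines quiescent stellate cells, measured 24.2, 20.5 and 24.7 CPM in Hete libraries and 18.8, 20.5 and 23.8 CPM in WT libraries, with overlap (0.14 ± 0.13). Cygb, cytoglobin, another gene of these cells, measured 13.6, 11.8 and 16.3 CPM in Hete libraries and 20.9, 23.3 and 25.6 CPM in WT libraries (−0.74 ± 0.15, edgeR adjusted p = 0.0634). Acta2, a marker of smooth muscle as well, measured 6.35, 20.7 and 7.86 CPM in Hete libraries and 5.86, 5.49 and 5.75 CPM in WT libraries. It had the opposite sign, without overlap (1.03 ± 0.44, edgeR adjusted p = 0.393), and was highest in Hete replicate 2. Of the 16 stellate cell markers, 10 had negative and 6 had positive log2 fold changes. Ecm1 belongs to the stellate cell list as well as to the members. Of 10 portal fibroblast markers 7 were tested, 3 were lower at an unadjusted edgeR p under 0.05, DESeq2 called 1 lower, and the sum ran from 52.7 to 79.8 CPM in Hete libraries and from 76.1 to 116 CPM in WT libraries. Gas6 made up 73.4% of that sum, and the other 9 markers summed to 12.9 to 18.7 CPM in Hete libraries and 24.2 to 32.7 CPM in WT libraries, without overlap. None of the markers of these 2 lists was at 0 in any library.

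Markers of recruited macrophages summed to 123, 124 and 156 CPM in Hete libraries and 294, 445 and 351 CPM in WT libraries, with 8 of 11 lower and 0 higher at an unadjusted p under 0.05 and 2, Ccr2 and Lyz2, lower at an edgeR adjusted p of 0.05. Chil3 of this list was at 0 in Hete replicate 2. Kupffer cell markers summed to 367 to 605 CPM in Hete libraries and 482 to 811 CPM in WT libraries, with 4 of 9 lower at an unadjusted p under 0.05. C6 made up 58.4% of that sum, and the other 8 markers summed to 154, 179.8 and 125 CPM in Hete libraries and 293, 489 and 228 CPM in WT libraries, without overlap. Clec4f itself measured 4.31, 4.97 and 3.90 CPM in Hete libraries and 48.6, 38.5 and 5.42 CPM in WT libraries. Mesothelial markers of the liver capsule, which also carries matrix-making cells, summed to 4.13 to 6.25 CPM in Hete libraries and 4.03 to 13.4 CPM in WT libraries, and Muc16 was at 0 in Hete replicates 1 and 2 and in WT replicate 1, Lrrn4 in Hete replicate 2 and WT replicate 1, and Upk1b in WT replicate 1. Smooth muscle markers summed to 35.9, 67.8 and 47.9 CPM in Hete libraries and 35.4 to 41.8 CPM in WT libraries, and Cnn1 was at 0 in WT replicate 1. Among cells that border a basement membrane or line the sinusoids, cholangiocyte markers summed to 91.6 to 121 CPM in Hete libraries and 127 to 169.5 CPM in WT libraries, without overlap. Spp1 made up 66.0% of that sum, and the other 7 summed to 39.1 to 50.9 CPM in Hete libraries and 39.2 to 43.6 CPM in WT libraries, with overlap. Sinusoidal endothelial markers summed to 428 to 555 CPM in Hete libraries and 406 to 479 CPM in WT libraries, with overlap. Of these 14 markers, 4 were higher and 1 lower at an unadjusted edgeR p under 0.05, against 4.20% and 9.00% of all genes tested. DESeq2 called 2 of them higher, against 0.645%, and edgeR and limma-voom called 0. The part of these cell types in the matrix gene differences was not tested.

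**Figure D5:**
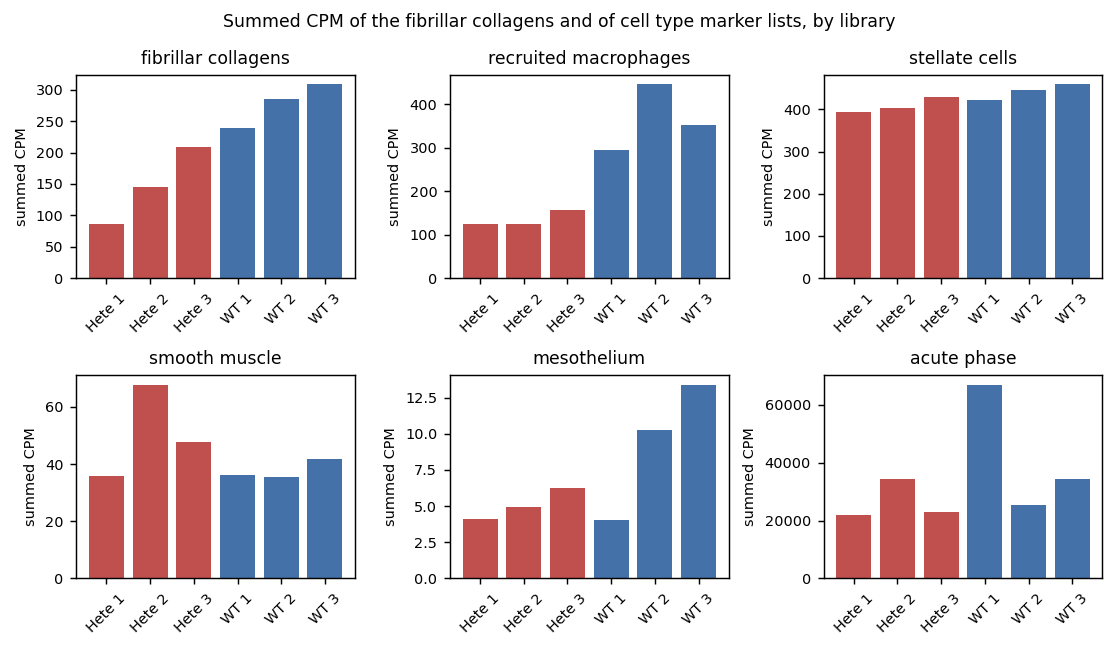
Summed CPM in each library, Hete (red) left of WT (blue), of the 5 fibrillar collagens among the members and of 5 lists of marker genes. Each axis starts at 0, and Col5a3 and Col27a1 are not in the fibrillar sum. Fibrillar collagen and recruited macrophage sums are lower in all Hete than in all WT libraries, smooth muscle genes stand out in Hete replicate 2 and acute phase genes in WT replicate 1.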

How the data were processed

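The data are 6 stranded mRNA libraries of whole liver, 3 Hete and 3 WT, each from 500 ng of TRIzol-extracted RNA, per the labels' protocols. Trimmomatic 0.36, HISAT2 2.2.1.0, HTSeq 0.9.1 and the mouse build GRCm39 were used, per the submitters' processing notes. No annotation or strand setting is named in the sources used here. The authors deposited raw read counts, 1 row per gene symbol, not normalized. In R 4.3.3, all 12706 genes kept by filterByExpr were scaled by TMM and tested in edgeR 4.0.16 (glmQLFit, robust, and glmQLFTest) with Benjamini-Hochberg adjustment over all of them at 0.05. SEs came from the F statistic (size of the log2 fold change over root F). log2 CPM used a prior count of 2. DESeq2 1.42.0, limma 3.58.1 (voom), other scalings and filters, a replicate block and left-out libraries were alternatives. Exon lengths, as the union of all exons annotated to a gene, came from GENCODE M21 on GRCm38 and served only for levels per kilobase. The test was checked on simulated counts.

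Members, classes and lists were chosen with earlier results of these data known. Per-library values were given for all fibrillar and basement membrane genes, for Sned1, and for the 2 members of each other class with the smallest p, and of each further gene list the 3 genes with the smallest p were named. Dcn, Sparc, Fn1, Col5a3 and single markers were named after their values were seen. Over all tested genes, deviations of same-numbered libraries had correlations of −0.21, −0.31 and 0.19, not all above the 0.1 required, so numbers were not treated as pairs, although among the members replicate 1 was most often lowest and replicate 3 most often highest in both groups. No 2 libraries agreed within sampling noise. Reads of overlapping antisense genes may not be told apart.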

Additional observations from a re-analysis of the deposited data

How the results depend on the processing

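With 3 libraries a group, a difference between groups must exceed a wide spread to be called, and the smallest exact permutation p of such a design is 0.10. Of the 37 members, 30 kept the sign of their log2 fold change in all 14 alternatives. The other 7 changed sign only in fits that left libraries out, with ranges over those fits of −0.10 to 0.095 for Col18a1, −0.12 to 0.038 for Ecm1, −0.56 to 0.011 for Fn1, −0.27 to 0.088 for Hspg2, −0.096 to 0.047 for Lamc1, −0.13 to 0.44 for Postn and −0.51 to 0.26 for Thbs1. Fn1 was 0.011, Ecm1 0.038, Hspg2 0.088 and Thbs1 0.26 without Hete replicate 1 and WT replicate 1 together. The cause was not tested. Numbers of genes called lower and higher over the whole table, 71 and 3, were 190 and 21 when all genes were kept, 47 and 1 with at least 1 CPM in 3 libraries, 452 and 82 in DESeq2, 45 and 1 in limma-voom, 20 and 0 without the robust fit, and 0 and 0 with the replicate block or without both replicates 1. Leaving out single libraries gave 0 to 107 lower and 0 to 15 higher. Members called lower numbered 7 in DESeq2 and 0 to 4 without single libraries. Members called higher numbered 0 without the robust fit, with the replicate block, without both replicates 1, and 0 without any single library. The count of members lower at an unadjusted p under 0.05, 22, was 12 to 26 without single libraries (6.17% to 9.59% of all genes in those fits) and 25 with the replicate block (8.08%), and without both replicates 1 there were 2 higher (2.19%). The Sned1 log2 fold change was 1.04 without the robust fit (edgeR adjusted p = 0.0515), 1.04 with the replicate block (0.177), 1.05 without both replicates 1 (0.211) and 0.997 to 1.13 without single libraries. The replicate block changed no other member's call.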

Other observations

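Ratios between collagen chain genes are given by library. Col4a1 over Col4a2, in CPM, was 1.38, 1.52 and 1.44 in Hete libraries and 1.57, 1.46 and 1.46 in WT libraries, while each gene's level spanned more than 2-fold over the 6 libraries. Col1a1 over Col1a2 was 0.825, 0.862 and 1.02 in Hete libraries and 1.08, 0.952 and 1.24 in WT libraries, and Col3a1 over Col1a1 was 1.63, 0.853 and 1.35 in Hete libraries and 1.02, 1.35 and 1.41 in WT libraries, so the groups overlapped in all 3 ratios.

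A few genes of collagen handling outside the 37 measured higher in Hete libraries without passing the test, chosen here after their values were seen. Loxl4, a lysyl oxidase, measured 6.64, 4.97 and 2.70 CPM in Hete libraries and 1.65, 2.88 and 2.85 CPM in WT libraries (log2 fold change 0.95 ± 0.36, edgeR adjusted p = 0.294). Fkbp14, a prolyl isomerase of collagen folding, measured 7.86, 8.42 and 9.81 CPM in Hete libraries and 6.95, 6.09 and 6.84 CPM in WT libraries (0.39 ± 0.17, edgeR adjusted p = 0.369). Itga10, a collagen-binding integrin chain, measured 5.01, 5.996 and 5.96 CPM in Hete libraries and 3.599, 3.97 and 4.10 CPM in WT libraries (0.54 ± 0.19, edgeR adjusted p = 0.256).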
